A study of Mus musculus with 6 samples.

Results

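The structural short RNAs described here are noncoding RNAs that work as the core of a ribonucleoprotein. The rule that defines them is a list of 9 symbols and holds no measured value, although the list was drawn up with earlier results of these data known. Of the 9, 6 had a row in the count tables and in the RPKM table, among 25610 gene and region rows. These were Rmrp, Rpph1, Terc, Rnu11, Rnu12 and Vaultrc5. The other 3 names, Rn7sk (7SK RNA) and the Y RNA genes Rny1 and Rny3, had no row under those symbols and were not analysed here.

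RNA was sequenced from mature sperm of adult C57BL/6 mice of the transgenic line HP3.1, taken from the cauda epididymidis and vas deferens of individual animals aged 4 months. Every preparation carried the same transgene, which the labels do not describe. In 2 preparations, nuclei 1 and nuclei 2, sonication and ultracentrifugation through sucrose and caesium chloride with Triton X-100 freed the nuclei. In the third, whole sperm, RNA was extracted without these steps. The labels do not tie a preparation to a number of animals, and each was sequenced in 2 runs that share 1 column, so 2 nuclei libraries were set against 1 whole-sperm library. P-values then measure only the spread between these preparations, which may be technical.

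RNase MRP and RNase P are related enzymes built around an RNA and a largely shared set of proteins: RNase P removes the leader of precursor tRNAs, and RNase MRP acts in the processing of ribosomal RNA. U11 and U12, encoded by Rnu11 and Rnu12, recognise the splice sites of the rare U12-type introns. Vault RNA sits in the vault, a large cytoplasmic particle, and Terc is the template RNA of telomerase. Most of these RNAs are known from the nucleus or nucleolus, whereas vaults are mainly cytoplasmic, and RMRP and RNase P RNA, like vault RNA, are made by RNA polymerase III.

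Library totals over gene and region rows were 5487306 (nuclei 1), 6648848 (nuclei 2) and 8316345 (whole sperm). All 15 spermatid and sperm markers on the list used were detected in every library, with summed levels of 5962, 5844 and 3386 CPM (counts scaled to the library total, with TMM factors) in nuclei 1, nuclei 2 and whole sperm. Epididymal epithelium markers summed to 1817, 1829 and 11024 CPM, with Lcn5, Lcn6, Lcn8 and Rnase10 at 0 in all libraries among 16 genes. Markers of epithelial cells summed to 114, 149 and 586 CPM over 9 genes, and those of leukocytes to 34.9, 11.4 and 48.4 CPM over 7 genes. Vas deferens epithelium markers summed to 838, 880 and 5646 CPM over 4 genes. Those of smooth muscle and stroma summed to 168, 94.8 and 148 CPM over 10 genes, with Des at 0. Sertoli and Leydig cell markers summed to 28.4, 3.59 and 1.27 CPM over 6 genes, with Amh, Star and Insl3 at 0, and erythrocyte markers had 0, 4 and 3 counts. Per the labels, whole sperm had been checked by eye for other cell types.

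The genes that carry the comparison are short. In build mm10 (RefSeq, GRCm38.p6) Rmrp lies on the minus strand at chr4:43492785-43493059, Rpph1 on the minus strand at chr14:50807447-50807771, Rnu11 on the minus strand at chr4:132270079-132270186, Rnu12 on the plus strand at chr15:83149645-83149794 and Terc on the minus strand at chr3:96414437-96414833. Their lengths in this annotation were 275, 325, 108, 150 and 397 bases in that order, and in GENCODE vM21 they were 271, 319, 134, 151 and 423 bases, so any level given per length depends on the model used. The RNAs of the RNase pair and Terc were GC-rich, at 64.2% in Rmrp, 67.1% in Rpph1 and 67.1% in Terc, against 52.2% in Rnu11, 51.7% in Rnu12 and 53.8% in Vaultrc5.

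The 2 nuclease RNAs are shown because neighbouring transcripts cover part of them. In the GENCODE vM21 sequences below, written 5′ to 3′ as DNA letters, capitals mark the letters also held by a transcript of a neighbouring gene. In Rmrp these are bases 36 to 159, present on the opposite strand in a transcript of Ccdc107. In Rpph1 they are bases 36 to 268, present on the same strand in a transcript of Ccnb1ip1, and the first 300 of 319 bases are printed.
Rmrp: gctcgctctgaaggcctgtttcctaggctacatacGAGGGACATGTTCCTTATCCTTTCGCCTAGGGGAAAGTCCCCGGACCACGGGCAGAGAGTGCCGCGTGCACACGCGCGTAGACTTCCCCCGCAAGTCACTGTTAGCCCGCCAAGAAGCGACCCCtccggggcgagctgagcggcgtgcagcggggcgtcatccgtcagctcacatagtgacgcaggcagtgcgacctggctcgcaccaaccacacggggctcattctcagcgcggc
Rpph1: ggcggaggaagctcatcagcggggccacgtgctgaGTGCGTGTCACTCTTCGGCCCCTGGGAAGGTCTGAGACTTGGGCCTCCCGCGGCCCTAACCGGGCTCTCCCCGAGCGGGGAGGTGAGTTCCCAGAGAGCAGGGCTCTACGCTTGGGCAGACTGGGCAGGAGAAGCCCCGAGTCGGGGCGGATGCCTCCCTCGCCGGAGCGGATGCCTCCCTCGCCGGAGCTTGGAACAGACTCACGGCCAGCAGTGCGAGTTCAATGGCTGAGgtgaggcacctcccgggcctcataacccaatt

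In the RefSeq models neither neighbour overlaps the RNA. In nuclei 1, nuclei 2 and whole sperm the counts of Ccdc107, a coiled-coil protein gene, were 0, 214 and 143. Ccnb1ip1, a meiotic recombination gene, had 0, 7 and 0 counts, and Parp2, a DNA repair polymerase gene that starts 70 bases from Rpph1 on the other strand, had 17, 59 and 50. All stood below the RNA beside them in each library. Whether reads of these overlaps were shared, dropped or counted once was not tested, because the sources used here do not give the counting rule or its strand setting. None of the 2381 assembled regions that the authors listed lay within 1000 bases of any of the 6 genes.

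The U11 and U12 RNAs are shown for the parts by which they act. In both, capitals mark AATTTTT, the letters of the site where the ring of Sm proteins assembles. In Rnu12 they also mark GTAAGGA, in the stretch that pairs with the branch site of U12-type introns.
Rnu11: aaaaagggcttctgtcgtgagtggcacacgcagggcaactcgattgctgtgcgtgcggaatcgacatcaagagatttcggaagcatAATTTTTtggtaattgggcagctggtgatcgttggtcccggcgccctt
Rnu12: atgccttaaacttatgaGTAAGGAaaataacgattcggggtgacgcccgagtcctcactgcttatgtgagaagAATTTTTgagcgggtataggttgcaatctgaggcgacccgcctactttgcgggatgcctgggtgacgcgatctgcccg

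The Sm letters stand at bases 87 to 93 of U11 and 74 to 80 of U12, and the branch-site letters at bases 18 to 24 of U12. Of 4796 GENCODE transcripts of 100 to 200 bases, 1.42% hold AATTTTT on the transcript strand and 3.67% on either strand, while GTAAGGA is in 0.730% and 1.08%. No other analysed short RNA holds AATTTTT or GTAAGGA on either strand. Near-copies make both genes uncertain: 3 other genes match Rnu11 and 3 match Rnu12 at 90% identity or more over at least 80% of the RNA, and 1 matches Vaultrc5, whereas none matches Rmrp, Rpph1 or Terc. One of the Rnu11 matches, Gm28872, is the opposite strand of the same place. Poldip3, a polymerase-interacting protein gene that starts 261 bases from Rnu12 on the other strand, had 41, 156 and 158 counts.

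Rmrp was the most abundant of the 6 in both nuclei libraries. Its counts were 392 (nuclei 1), 1159 (nuclei 2) and 708 (whole sperm), or 74.7, 174 and 81.7 CPM. Nuclei 2 stood above whole sperm and nuclei 1 slightly below it, so the groups overlap. The fit gave a log2 fold change of nuclei over whole sperm of 0.60 ± 0.82 (SE; edgeR adjusted p = 0.932). Nuclei 1 by itself gave -0.13 and nuclei 2 by itself 1.09. By counts it ranked 1236th, 605th and 1113th of 23229 annotated genes in nuclei 1, nuclei 2 and whole sperm.

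Rpph1, the RNA of RNase P, was the most uneven between the nuclei preparations. Nuclei 1 held 98 counts of it (18.7 CPM), nuclei 2 held 845 (127 CPM) and whole sperm held 251 (29.0 CPM). Whole sperm lay between the nuclei libraries, which differed 6.77-fold, far beyond counting error: the exact 95% Poisson intervals were 15.2 to 22.8 CPM and 118 to 135 CPM. The nuclei mean of 72.6 ± 76.3 CPM (SD, n = 2) was 2.51-fold above whole sperm (log2 1.33 ± 1.01 SE, edgeR adjusted p = 0.909). Nuclei 1 by itself gave a log2 difference of -0.63 and nuclei 2 by itself 2.13, so nuclei 2 decides the direction.

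Within a library the pair can be compared without any scaling between libraries. Rmrp had 4.00 counts for each Rpph1 count in nuclei 1 (exact 95% interval 3.20 to 5.04), 1.37 in nuclei 2 (1.25 to 1.50) and 2.82 in whole sperm (2.44 to 3.27). The 3 intervals do not overlap, and whole sperm lies between the nuclei libraries. These intervals, and those of levels, take in counting error alone, because reads copied by PCR were not told apart. In RPKM, which is per length, the ratios were 4.67, 1.56 and 2.78. Rmrp was thus above its sister RNA in every library on both scales, and no fixed proportion held across preparations.

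**Figure D1:**
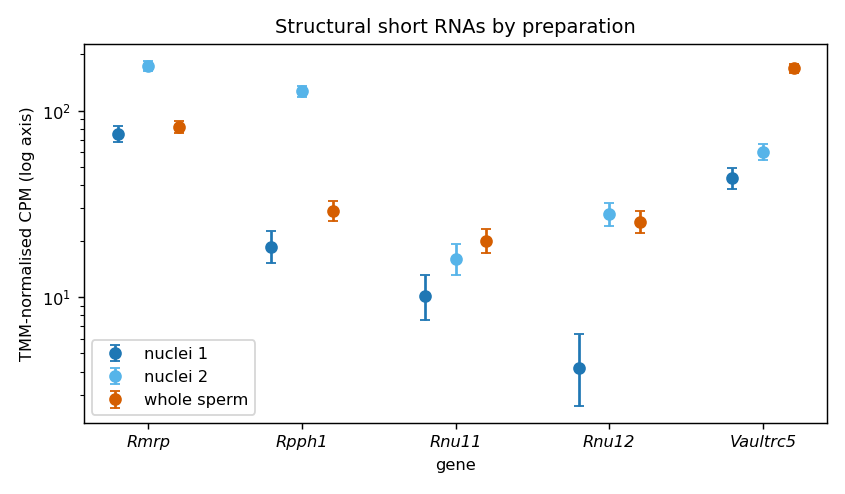
Levels of the 5 RNAs with counts, in TMM-normalised CPM on a log axis, for nuclei 1, nuclei 2 and whole sperm; bars are exact 95% Poisson intervals. Vaultrc5 is the RNA furthest above both nuclei libraries in whole sperm (168 CPM), and Rpph1 and Rnu12 differ most between the nuclei libraries.

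Counts of Rnu11, the U11 RNA, were 53 (nuclei 1), 107 (nuclei 2) and 174 (whole sperm), or 10.1, 16.0 and 20.1 CPM. Both nuclei libraries lay below whole sperm, and the interval of nuclei 2 (13.1 to 19.4 CPM) overlapped that of whole sperm (17.2 to 23.3 CPM). The log2 fold change was -0.62 ± 2.02 (SE, edgeR adjusted p = 1.00). Nuclei 1 by itself gave -0.99 and nuclei 2 by itself -0.32.

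Rnu12, the U12 RNA, had 22, 186 and 219 counts, or 4.19, 27.9 and 25.3 CPM. It was low in nuclei 1 only: nuclei 2 and whole sperm had overlapping intervals (24.0 to 32.2 and 22.0 to 28.9 CPM), while nuclei 1 stood 6.03-fold below whole sperm. Because the nuclei libraries lay on either side of whole sperm, the log2 fold change of -0.65 ± 1.74 (SE, edgeR adjusted p = 0.999) turned to 0.14 with nuclei 2 by itself and was -2.58 with nuclei 1 by itself.

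U11 and U12 act as 1 particle that recognises both ends of an intron together. Per length, their RPKM ratio of U11 to U12 was 3.47 (nuclei 1), 0.907 (nuclei 2) and 1.06 (whole sperm). This ratio depends on the gene model, which gives U11 108 bases in RefSeq and 134 in GENCODE vM21. The count ratios were 2.41 (exact 95% interval 1.44 to 4.16), 0.575 (0.449 to 0.734) and 0.795 (0.647 to 0.974). Nuclei 1, with 22 counts of U12, stood apart from the other libraries, whose intervals overlapped.

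Vaultrc5 was the RNA that lay furthest below whole sperm in the fit. The gene lies on the plus strand at chr18:36801763-36802107 (RefSeq, GRCm38.p6), and its model has 345 bases there and 143 in GENCODE vM21. Its counts were 227 (nuclei 1), 400 (nuclei 2) and 1457 (whole sperm), or 43.3, 59.9 and 168 CPM. Both nuclei libraries were low and the groups do not overlap: whole sperm was 3.88-fold above nuclei 1 and 2.81-fold above nuclei 2. The nuclei mean was 51.6 ± 11.8 CPM (SD, n = 2). The log2 fold change was -1.70 ± 0.81 (SE), which missed the threshold with an edgeR adjusted p = 0.755 (unadjusted 0.0349) and a DESeq2 adjusted p = 0.365. Nuclei 1 by itself gave -1.96 and nuclei 2 by itself -1.49. Less RNA per cell and fewer cells that hold the RNA cannot be told apart in such libraries.

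Among marker lists of other cells, those of epithelia, leukocytes and smooth muscle and stroma all had medians below 0, the side of vault RNA. The epididymal epithelium list had a median log2 fold change of -2.06 over 11 tested genes, against 0.27 for all tested rows. In it 2 genes fell, where 0.0957% of all rows did: the secreted protein gene Crisp1 and the protease inhibitor gene Spink10. Another 2 of the 11, Crisp4 (3.28) and Adam28 (2.62), were above 0 and were not called. The epithelial list had -2.09 over 9, with 1 that fell, the tight junction gene Cldn8, and 1 above 0, Cldn3 (0.17). The vas deferens list had -1.49 over 3, the leukocyte list -1.58 over 6 and the smooth muscle and stroma list -1.66 over 9, with none called in these lists. In the leukocyte list 1 of 6 genes, Itgam (2.12), was above 0. In the smooth muscle and stroma list 4 of 9 genes were above 0, among them the collagen gene Col1a1 (3.27) and the smooth muscle myosin gene Myh11 (1.91). The 1 tested gene of the Sertoli and Leydig list, Sox9, was at 3.59 and was not called. Their part in the vault RNA difference was not tested.

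Beside Rmrp, vault RNA changed place between fractions. For each Rmrp count nuclei 1 held 0.579 Vaultrc5 counts (exact 95% interval 0.490 to 0.684), nuclei 2 held 0.345 (0.307 to 0.387) and whole sperm held 2.06 (1.88 to 2.25). The whole-sperm interval lies above both nuclei intervals, and the ratio does not depend on how libraries are scaled. The nuclei intervals do not overlap each other either, so counting error alone also separates preparations of the same group. Rpph1 and Rnu12 had 4.45 (exact 95% interval 2.78 to 7.43) and 4.54 (3.87 to 5.35) counts of Rpph1 per count of Rnu12 in nuclei 1 and nuclei 2. In whole sperm the ratio was 1.15 (0.952 to 1.38). The nuclei 1 value rests on 22 counts of Rnu12, so its closeness to nuclei 2 lies within a wide counting error. Both pairs were picked from 10 pairs after their values were seen. Other pairs also had whole sperm apart from both nuclei libraries, such as Rmrp and Rnu11 (7.40, 10.8 and 4.07 Rmrp counts per Rnu11 count in nuclei 1, nuclei 2 and whole sperm).

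Terc was at 0 counts in all 3 libraries. A count of 0 allows a level of up to 0.547 CPM (nuclei 1), 0.451 CPM (nuclei 2) and 0.361 CPM (whole sperm), taking 3 counts as the limit and raw library totals. Telomerase RNA was therefore not detectable at this depth, and it did not pass the filter for the test.

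**Figure D2:**
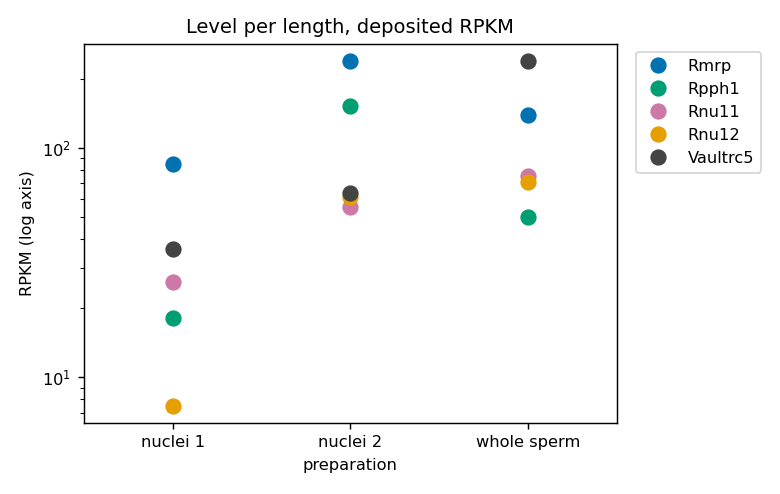
Deposited RPKM of the 5 RNAs with counts, on a log axis, in each preparation. Rmrp leads both nuclei libraries (84.6 and 238 RPKM), and Vaultrc5 leads whole sperm (238 RPKM). The order depends on the gene lengths used.

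Per length, in the deposited RPKM, the order of the RNAs differed between preparations. The gene lengths behind these values are not stated here. Vaultrc5 had the lowest RPKM per count in nuclei 1 (0.159), and its model has 345 bases in RefSeq but 143 in GENCODE vM21. Its place in the orders therefore depends on the model. In nuclei 1 the RPKM values ran from Rmrp (84.6) through Vaultrc5 (36.0), Rnu11 (26.1) and Rpph1 (18.1) to Rnu12 (7.52). In nuclei 2 they ran from Rmrp (238) and Rpph1 (153) to Vaultrc5 (63.8), Rnu12 (60.8) and Rnu11 (55.1), of which the last 3 lay close together. In whole sperm Vaultrc5 (238) came before Rmrp (139), Rnu11 (75.3), Rnu12 (70.9) and Rpph1 (50.0). With 1 value per library and no spread measured for it, neighbours in these orders cannot be separated. The closest were Vaultrc5 and Rnu12 in nuclei 2 and Rnu11 and Rnu12 in whole sperm.

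Together the 6 genes took 0.0144% of nuclei 1 counts (exact Clopper-Pearson 95% interval 0.0134 to 0.0155), 0.0406% of nuclei 2 counts (0.0390 to 0.0421) and 0.0338% of whole-sperm counts (0.0325 to 0.0350). Rmrp made up 49.5% and 43.0% of these counts in nuclei 1 and nuclei 2 and 25.2% in whole sperm. Vaultrc5 made up 28.7%, 14.8% and 51.9%. The mix of structural RNAs therefore leaned to RNase MRP RNA in nuclei and to vault RNA in whole sperm, in shares that are bound to move against each other.

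Over all rows, 27 of 16720 tested (0.161%) passed the edgeR test in either direction, 0.0957% of rows lower and 0.0658% higher in nuclei. Of the 5 tested structural RNAs none passed (0 of 5), and DESeq2 called 0 as well. At an unadjusted p under 0.05 edgeR had 1, Vaultrc5, against 2.07% of all rows that were lower at that level, and DESeq2 had 0. Both nuclei libraries were below whole sperm for 2 of the 5, Rnu11 and Vaultrc5, beside 36.9% of all tested rows. For Vaultrc5 whole sperm was over 2 times the higher nuclei library, as it was for 22.9% of all tested rows. A gap of that size was therefore common among rows of any level, which were not matched to Vaultrc5. A p that misses the threshold does not show equal levels, and with 1 residual degree of freedom the fit uses a spread pooled over genes (common biological coefficient of variation 1.30).

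**Figure D3:**
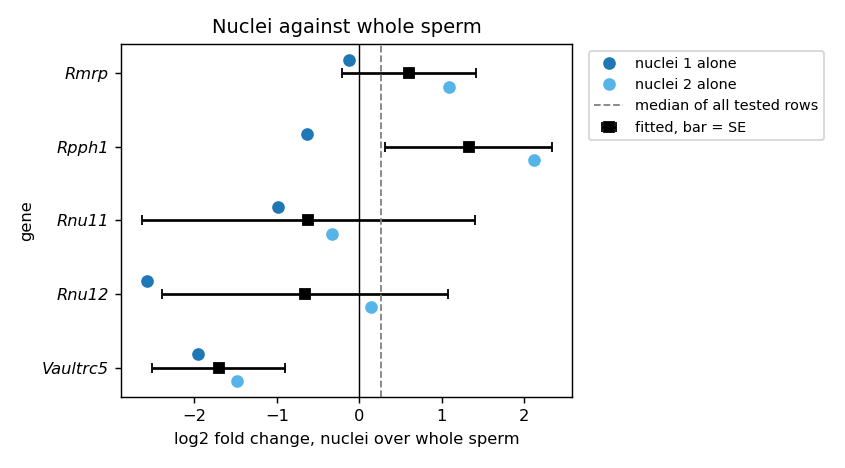
Log2 fold changes of nuclei over whole sperm for the 5 tested RNAs: squares are fitted values with their SE, circles are each nuclei library alone, and the dashed line is the median of all tested rows (0.27). Only for Rnu11 and Vaultrc5 do both circles lie on one side of 0.

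The 5 RNAs were all higher in nuclei 2 than in nuclei 1. The ratios were 1.38 for Vaultrc5, 1.59 for Rnu11, 2.32 for Rmrp, 6.64 for Rnu12 and 6.77 for Rpph1. Over all tested rows such differences were ordinary: the median absolute log2 difference between the nuclei libraries was 1.84, and 38.5% of rows differed by more than Rpph1 did. Those rows were not matched in level to the 5 RNAs. How many of all tested rows were higher in nuclei 2 was not counted, so the shared direction may not be particular to these RNAs. Vaultrc5 was the steadiest, with 80.9% of rows differing by more.

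Scaling to spike-ins lowered nuclei as a whole and turned 2 of the directions. The 23 synthetic RNAs shared by the count tables put the median of all tested rows at -1.16, against 0.27 with TMM. Under it Rmrp was at -0.84 and Rpph1 at -0.12, still above that median. Vaultrc5 was at -3.14 and passed the test (edgeR adjusted p = 0.00423), as did 3.26% of all tested rows in that direction. How much spike-in each library received was not analysed here.

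**Figure D4:**
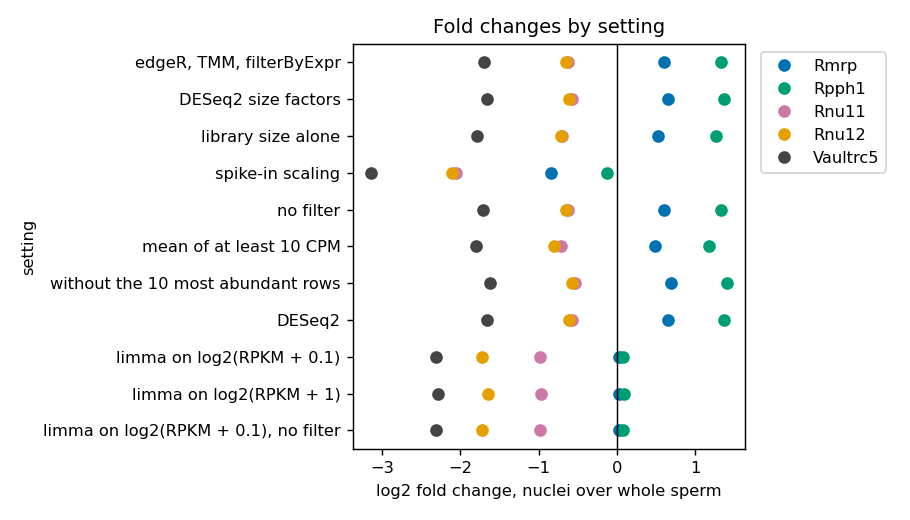
Log2 fold change of nuclei over whole sperm for the 5 RNAs under each setting. Vaultrc5, Rnu11 and Rnu12 stay below 0 in every setting drawn, and Rmrp and Rpph1 cross to negative values with spike-in scaling.

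The authors also deposited a whole-sperm column from which the average nuclei count was taken away, with negative results set to 0. In it Rmrp and Rpph1 stood at 0, 2 of the 5 RNAs with a whole-sperm count, beside 34.1% of all such rows. Rnu11 kept 94 of 174 (54.0%), Rnu12 115 of 219 (52.5%) and Vaultrc5 1144 of 1457 (78.5%), while all rows together kept 40.8%. Because the subtraction uses raw counts, the 1159 and 845 counts of nuclei 2 set the zeros of Rmrp and Rpph1.

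Genes of the proteins that bind or transcribe these RNAs were followed on 7 lists. Of 88 names 84 had a row and 76 were tested. None rose or fell by edgeR, where 0.161% of all rows were called. At an unadjusted p under 0.05 it had 1 gene higher and 0 lower in nuclei, beside 3.77% and 2.07% of all rows, so these counts say little of the partners in particular. DESeq2 called 0, with 1 at an unadjusted p under 0.05. Their median log2 fold change was -0.43, with 35 above 0 and 41 below it, against 0.27 for all tested rows.

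**Figure D5:**
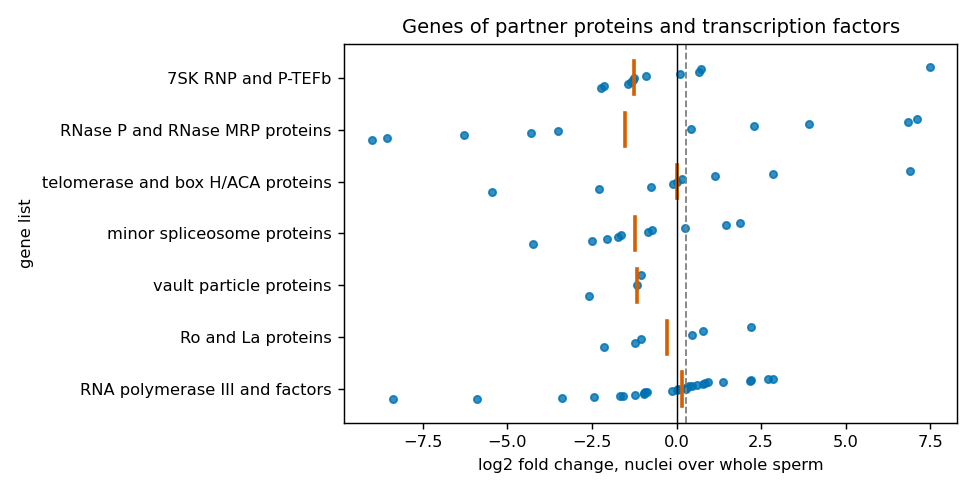
Log2 fold changes of nuclei over whole sperm for the tested genes on 7 lists; each point is a gene, orange bars are list medians and the dashed line is the median of all tested rows (0.27). The points furthest from 0 belong to genes with few counts, several of them at 0 in a group, and their fitted values are no bounds.

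RNase P and RNase MRP proteins were thinly covered. All 11 genes together had 76 (nuclei 1), 91 (nuclei 2) and 394 (whole sperm) counts, below the counts of Rmrp alone in each library. Of 10 tested, 5 lay above and 5 below 0 (median -1.53, also with the 4 genes that had a group at 0 set to their bound). Pop1, a shared subunit, was at 0, 0 and 81 counts. Taking a floor of 3 counts per library, nuclei were at least 18.3-fold lower (edgeR adjusted p = 0.909). Rpp21 had 5, 1 and 97 counts (adjusted p = 0.909 by edgeR), and Pop7 had 19, 37 and 8 (edgeR adjusted p = 0.997).

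Other partners were split. In the 7SK and P-TEFb list, 11 genes were tested with a median of -1.26. Its most abundant gene, Larp7, which holds and stabilises 7SK RNA, was at 263, 601 and 272 CPM, so nuclei 2 again stood above the other libraries (log2 0.67, edgeR adjusted p = 0.909). Hnrnpa2b1, an RNA-binding protein gene, was at 77.6, 70.1 and 189 CPM, low in both nuclei libraries (log2 -1.35, edgeR adjusted p = 0.909), and Syncrip, another such gene, was at 109, 87.8 and 92.4 CPM.

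The minor spliceosome list had a median of -1.23 over 10 tested genes, 3 above and 7 below 0. Ythdc1, a reader of methylated RNA that acts in splicing, was at 108, 214 and 136 CPM, and Dhx15, a splicing helicase gene, was at 27.5, 25.0 and 46.6 CPM. Pdcd7, a protein of the U11 and U12 particle, was at 1.14, 6.59 and 16.0 CPM (edgeR adjusted p = 0.967). Both nuclei libraries were below whole sperm for it, as for 36.9% of all tested rows.

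Vault protein genes lay on the same side of 0 as vault RNA, for 3 of 3 tested (median -1.17), with none called. In all 3 both nuclei libraries were below whole sperm, as for 36.9% of all tested rows. The RNase P and RNase MRP, 7SK and minor spliceosome lists also had medians below 0 (-1.53, -1.26 and -1.23), while RNA polymerase III and its factors had 0.17. This side of 0 was therefore not particular to vault genes. Mvp, the major vault protein that forms the shell, had 0, 45 and 66 counts. Parp4 had 80, 2 and 401 counts and Tep1 had 76, 32 and 173. In each of the 3 the nuclei libraries differed more than 2-fold. Telomerase and box H/ACA genes had a median of -0.00 over 9 tested, led by Parn (67.7, 74.3 and 120 CPM), Shq1 (55.5, 111 and 74.2 CPM) and Nop10 (29.9, 11.8 and 22.5 CPM). Tert, the catalytic subunit, was at 19, 5 and 0 counts; it is named with its values known.

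Among Ro and La proteins (6 tested, median -0.29), Ssb, the La protein that binds the end of new polymerase III transcripts, was at 1.72, 19.5 and 46.6 CPM. Ptbp1 was at 142, 110 and 91.2 CPM and Matr3 at 69.2, 7.64 and 89.8 CPM. RNA polymerase III and its factors had a median of 0.17 over 28 tested genes, 16 above 0. Snapc4, a subunit of the complex that starts transcription of small nuclear RNA genes, was at 24.2, 107 and 9.12 CPM, above whole sperm in both nuclei libraries (log2 2.85, edgeR adjusted p = 0.605). Gtf3c6 was at 103, 135 and 115 CPM and Pou2f1 at 36.2, 41.2 and 75.1 CPM.

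Other short structural RNAs were hardly counted. Of 26 names 5 had a row, and Rnu6 and Rnu7 were at 0 in all libraries, Rnu73b at 0, 0 and 1 counts and Rn4.5s at 0, 0 and 8. Bc1, a dendritic RNA of brain, had 7, 13 and 15 counts and was the 1 tested (edgeR adjusted p = 1.00).

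The genes nearest to the 2 most abundant RNAs in level were taken by distance of log2(CPM + 1) over 3 libraries, among 6723 genes with a mean of at least 10 CPM. For Rmrp they were Anapc1 (distance 0.196; 85.4, 173 and 79.1 CPM), Fanca (0.212) and Rps15 (0.233). For Vaultrc5 they included Ift80 (0.300; 37.2, 51.7 and 169 CPM) and Ivns1abp (0.337; 45.4, 67.0 and 206 CPM). With 3 libraries such closeness is a description of levels only.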

How the data were processed

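The list of members, though it uses no measured value, and the gene lists were drawn up with earlier results of these data known. The authors deposited whole-number counts per gene or assembled region without normalization, an adjusted whole-sperm column handled here as a score, and a table of RPKM, per the file headers. The submitters' processing notes name build mm10 and, with no role stated, HTSeq, DESeq2, bedtools, TopHat2 2.0.12, CASAVA 1.8.2, SAMtools 0.1.19 and Cufflinks 2.1.1. Spike-in rows, and the rows for reads outside features (34.4% of the whole-sperm table) and ambiguous reads (1.97%), stayed out of library sizes and tests.

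Nuclei were compared with whole sperm in edgeR 4.0.16 under R 4.3.3 (quasi-likelihood test), using TMM, filterByExpr and Benjamini-Hochberg adjustment over all 16720 tested rows, threshold 0.05. It has 1 residual degree of freedom, infinite prior degrees of freedom, and assumes that the lone whole-sperm library varies like the nuclei libraries. SEs were derived from the F statistic, so they rest on the spread pooled over genes and not on each gene's own. The test was checked on simulated data, where its power was low at a wide spread close to the one fitted here. That no short RNA and no partner gene passed therefore says little about their levels. Alternatives were scaling by spike-ins, by library size or by DESeq2 size factors, a minimum mean of 10 CPM or no filter, leaving out the 10 most abundant rows, DESeq2 1.42.0, limma 3.58.1 on log2(RPKM + 0.1) with and without a filter at a mean of 0.1 RPKM and on log2(RPKM + 1), and each nuclei library alone. RPKM per count was not constant between libraries (Rnu11: 0.493, 0.515 and 0.433). Named genes were the members, up to 3 tested genes of highest mean per list, neighbours within 1000 bases and the 3 nearest genes in level of the 2 most abundant members, of which 1 is not reported here; Tert was added later. Sequences come from GENCODE vM21 transcripts, positions from RefSeq.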

Additional observations from a re-analysis of the deposited data

Results flagged for a closer look

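Reads that fell outside every feature numbered 5896320 in the table of whole sperm, and the nuclei tables held no such row. They are listed because they are signal in data that the comparisons do not use. Which RNAs they came from was not tested.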

How the results depend on the processing

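Over 10 alternatives for each of 5 RNAs, 47 of 50 fold changes kept their direction and their side of the threshold, and the other 3 came from spike-in scaling. With it Rmrp turned to -0.84, Rpph1 to -0.12, Vaultrc5 passed (-3.14), the number of structural RNAs called went from 0 to 1, and the number of partner genes called from 0 to 2 (Gtf3c1 and Hnrnpa2b1, both lower). Vaultrc5 ranged from -3.14 to -1.62 (adjusted p 0.00423 to 0.877), Rnu11 from -2.06 to -0.54, Rnu12 from -2.10 to -0.57, Rmrp from -0.84 to 0.68 and Rpph1 from -0.12 to 1.41. On log2(RPKM + 0.1), Rmrp and Rpph1 were near 0 (0.03 and 0.07). Leaving out a nuclei library gave -0.13 to 1.09 for Rmrp, -0.63 to 2.13 for Rpph1, -2.58 to 0.14 for Rnu12, -0.99 to -0.32 for Rnu11 and -1.96 to -1.49 for Vaultrc5, with no test. These values are not among the 50, and Rmrp, Rpph1 and Rnu12 each changed sign when 1 nuclei library was left out. Counts over all rows were 27 with TMM, 166 with DESeq2, 549 with spike-in scaling and 0 at a mean of at least 10 CPM or with limma. In settings that called 0 rows, no RNA could change its side of the threshold, so only the direction was informative there. The cause of these shifts was not tested. No paired analysis was possible because whole sperm has 1 library.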

Other observations

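RNase P RNA has a close relative among the annotated genes. Rprl3, an RNase P RNA-like gene named after its values were seen, matches Rpph1 at 86.0% identity over 257 bases and was counted 80 (nuclei 1), 187 (nuclei 2) and 54 (whole sperm) times, or 15.3, 28.0 and 6.23 CPM. It was above whole sperm in both nuclei libraries, as were 26.7% of all tested rows, and it was not called (log2 1.79 ± 2.15 SE, edgeR adjusted p = 0.909). The sister genes Rprl1 and Rprl2, at 83.7% and 85.6% identity, had 0, 0 and 0 counts and 0, 1 and 0 counts. The counts of such similar genes are uncertain where reads match both; how such reads were counted is not given here.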
